A study of Drosophila melanogaster with 10 samples.

Results

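The genes described here are 33 genes of the early secretory pathway, named by their roles in moving proteins into the endoplasmic reticulum (ER), cutting and glycosylating them there, and carrying them between ER and Golgi. They were taken by symbol from a transcript-level expression table of the Drosophila melanogaster midgut, summed to 14292 genes, of which 8722 were tested. Of the 33 names, 32 are current gene symbols and 1, Spase18-21, is an older name of the gene twr. All 33 were listed in every library, with a lowest single value of 7.37 TPM, a transcript's length-normalised share of its library, and all 33 passed the filter on low values.

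Midguts of adult males carrying the Dredd D44 allele were compared between 2 genotypes. The controls, mex>+, were Dredd D44/Y and mex-GAL4/+, and mex>PGRP-LE flies were Dredd D44/Y and mex-GAL4/UAS-PGRP-LE. The mex-GAL4 driver works in enterocytes, which absorb nutrients and make up most of the epithelium, so that PGRP-LE, an intracellular receptor for bacterial peptidoglycan, was overexpressed there. Both groups lacked a wild-type Dredd allele, whose product is a caspase of the IMD immune pathway, both were fed yeast alone, and both were kept at 25 °C with 12 h of light and 12 h of dark until dissection 7 days after eclosion. Each of the 5 biological replicates per genotype came from the poly(A) RNA of 20 pooled midguts. The comparison asks what overexpression of the receptor changes in Dredd mutant guts.

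Many secreted and membrane proteins of a eukaryotic cell begin with a signal sequence that the signal recognition particle (SRP) binds on the ribosome and brings to the SRP receptor in the ER membrane. The chain then passes through the Sec61 translocon, signal peptidase removes the signal sequence, and oligosaccharyltransferase attaches N-linked glycans. Vesicles with a COPII coat carry cargo from ER to Golgi, and vesicles with a COPI coat return proteins and membrane from Golgi to ER. Enterocytes secrete digestive enzymes in large amounts and use this route throughout.

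PGRP-LE itself stood at 38.2 ± 2.33 TPM (SD, n = 5) in mex>+ and at 4534 ± 295 TPM in mex>PGRP-LE, with a log2 difference of 6.85 ± 0.06 (SE), as the genotype labels state. Dredd transcript was 23.2 ± 2.01 TPM in the controls and 32.96 ± 2.15 TPM with PGRP-LE, and its level does not check the allele. Correlations of log2 values between libraries were 0.9797 to 0.994 within mex>+, 0.9814 to 0.995 within mex>PGRP-LE and 0.9301 to 0.956 between the genotypes. TPM keep no sequencing depth, so how many reads lie behind a value is unknown and intervals for counting error cannot be given. Below, levels are in TPM as mean ± SD over 5 libraries, and differences are mex>PGRP-LE minus mex>+ on the log2(TPM + 1) scale with their SE, tested with limma and adjusted by Benjamini-Hochberg over all 8722 genes.

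Most genes of the set were more abundant in mex>PGRP-LE. Of the 33, 26 rose, none fell, and 7 did not pass an adjusted p of 0.05. Over all genes tested, 40.1% passed upward and 22.8% passed downward. The groups did not overlap for 25 of the 33, every PGRP-LE library lying above every control, which held for 31.3% of all genes (17% did not overlap in the other direction). The median difference was 0.33 over the 33 genes and 0.09 over all genes tested. Differences past the threshold ran from 0.18 to 0.72, and 9 genes rose by at least 0.5, a size reached by 14.3% of all genes upward and 9.48% downward. The 7 without a call, Srp68, SrpRalpha, Sec63, TRAM, Sec16, alphaCOP and deltaCOP, lay between -0.02 and 0.13. In whole-midgut RNA, more cells that express a gene and more RNA per cell cannot be told apart.

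**Figure D1:**
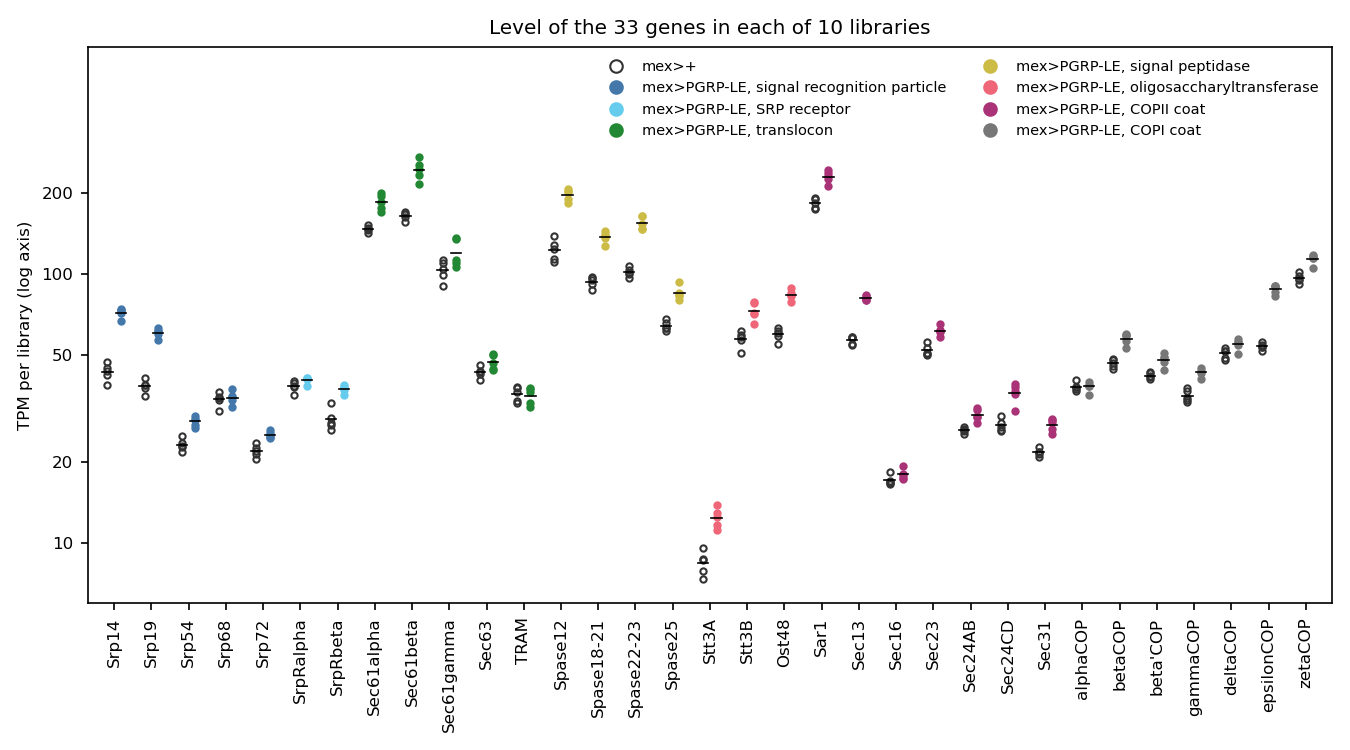
Level of each of the 33 genes in TPM on a log axis, with 1 open point per mex>+ library, 1 filled point per mex>PGRP-LE library coloured by step of secretion, and a bar at each group's mean (n = 5). Srp14, epsilonCOP and the 4 signal peptidase genes show groups that do not overlap, while those of Srp68, TRAM and alphaCOP lie on each other.

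The median difference of each step is given as a description, without a test between steps. The counts are to be read against the 40.1% of all genes tested that rose, and the medians against 0.09 over all genes. All 4 signal peptidase genes and all 3 oligosaccharyltransferase genes rose, with median differences of 0.58 and 0.48. The 7 COPII genes had a median of 0.33 with 6 higher, and the 7 COPI genes 0.24 with 5 higher. The 5 genes grouped under SRP had a median of 0.28 with 4 higher. That median is the value of Srp54, which encodes no SRP subunit, as described below. Srp14, Srp19, Srp72 and Srp68 stood at 0.72, 0.65, 0.19 and 0.02. The 2 SRP receptor genes had a median of 0.22 with 1 higher, and the 5 translocon genes 0.21 with 3 higher. Median-of-ratios rescaling moved the median of all genes from 0.09 to -0.0025. The step medians were then over 1.5 times smaller for SRP, to 0.17, its receptor, to 0.12, the translocon, to 0.10, and COPI, to 0.13. In summed level, signal peptidase went from 383 ± 20.5 to 576 ± 27.4 TPM, the translocon genes from 495 ± 15.8 to 633 ± 50.2 TPM and COPI from 364 ± 11.1 to 444 ± 17.9 TPM.

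**Figure D2:**
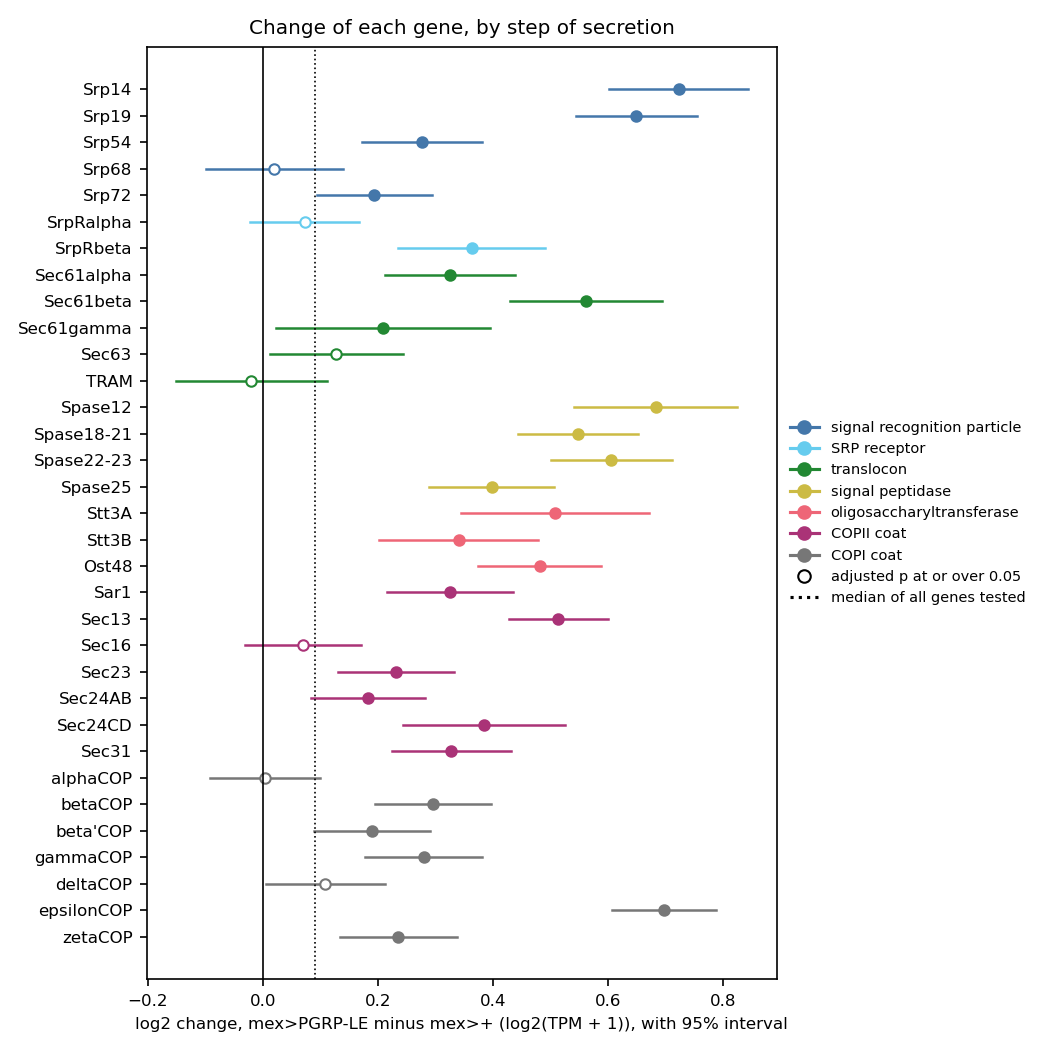
Difference of each gene, mex>PGRP-LE minus mex>+, on the log2(TPM + 1) scale with its 95% interval from limma (n = 5 per group), coloured by step, with open points where the adjusted p was at or over 0.05 and a dotted line at the median of all genes, 0.09. The 26 filled points all lie to the right of 0, and the signal peptidase genes lie between 0.40 and 0.68.

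Within SRP, the genes with the shortest transcripts, Srp14 and Srp19, moved furthest. Srp14, which with Srp9 binds the Alu end of the SRP RNA and slows elongation of the chain, lies on 3R at 20580115 to 20580764 on the plus strand (BDGP6.54). It measured 38.7, 42.1, 44.8, 47.1 and 43.5 TPM in mex>+ replicates 1 to 5 and 73.6, 71.5, 74.5, 67.0 and 73.1 TPM in mex>PGRP-LE. The lowest PGRP-LE library thus stood well above the highest control, and the difference was 0.72 ± 0.06 (adjusted p = 4.29e-07), 1.66 times the control mean. Srp19, which binds the SRP RNA during assembly of the particle, rose from 38.4 ± 2.10 to 60.7 ± 2.28 TPM, a difference of 0.65 ± 0.05 (adjusted p = 3.44e-07). Srp68 and Srp72 encode proteins that form a pair on the same RNA, and their values parted slightly. Srp72 rose from 22.0 ± 1.14 to 25.3 ± 0.70 TPM, a difference of 0.19 ± 0.05 (adjusted p = 0.00283). Srp68 was 34.3 ± 2.08 and 34.8 ± 1.92 TPM, a difference of 0.02 with a 95% interval of -0.10 to 0.14 (adjusted p = 0.762). Whether Srp68 and Srp72 differ in response was not tested.

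The symbol Srp54 needs care, because in the authors' deposited table it names a splicing regulatory protein and not the SRP subunit. That gene rose from 23.2 ± 1.16 to 28.4 ± 1.18 TPM, a difference of 0.28 ± 0.05 (adjusted p = 0.000325). Without it, 25 of 32 genes rose, against 40.1% of all genes tested. The GTPase subunit that binds signal sequences is encoded by Srp54k, on 3L at 5152678 to 5154777 on the plus strand, and is not among the 33. Srp54k rose from 40.5 ± 0.87 to 45.8 ± 1.86 TPM, a difference of 0.17 ± 0.04 (adjusted p = 0.00323), and its groups did not overlap.

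The SRP receptor pairs a GTPase that meets SRP, SrpRalpha, with a GTPase anchored in the ER membrane, SrpRbeta. SrpRbeta measured 29.2, 27.6, 26.4, 33.1 and 28.1 TPM in the controls and 35.4, 38.7, 37.6, 37.0 and 38.2 TPM with PGRP-LE. The groups did not overlap, and the difference was 0.36 ± 0.06 (adjusted p = 0.000187). SrpRalpha measured 38.4 ± 1.69 and 40.4 ± 1.13 TPM, a difference of 0.07 ± 0.04 that did not pass (adjusted p = 0.16).

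Of the translocon genes, Sec61alpha and Sec61beta had groups that did not overlap. Sec61alpha, the pore of the channel, measured 149, 143, 153, 148 and 146 TPM in mex>+ and 177, 185, 169.9, 195 and 201 TPM in mex>PGRP-LE. No library of either group crossed into the other, and the difference was 0.33 ± 0.05 (adjusted p = 0.000168). Sec61beta, a small tail-anchored subunit, rose from 165 ± 5.32 to 245 ± 21.7 TPM, a difference of 0.56 ± 0.06 (adjusted p = 7.26e-06). Sec61gamma, the other small subunit, had overlapping groups, at 90.7 to 113 TPM in the controls and 106 to 136 TPM with PGRP-LE. Its difference of 0.21 ± 0.09 passed narrowly (adjusted p = 0.0496) and lost its call without any of mex>+ replicates 1, 2 and 5 or mex>PGRP-LE replicates 2, 4 and 5 (adjusted p of 0.0516 to 0.119). Sec63, a J-domain protein that brings the chaperone BiP to the channel, was 43.2 ± 1.92 and 47.3 ± 3.06 TPM, just outside the threshold (difference 0.13 ± 0.05, adjusted p = 0.0512). It passed without mex>+ replicate 4 and without mex>PGRP-LE replicate 1 or 2 (adjusted p of 0.0336 to 0.0370). TRAM, known in mammals to help some chains into the membrane, was 35.9 ± 2.20 and 35.4 ± 2.55 TPM, a difference of -0.02 with a 95% interval of -0.15 to 0.11.

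Signal peptidase was the step whose genes moved together with the highest median. Spase12, a small non-catalytic subunit on 3R at 29490544 to 29491150 on the minus strand, measured 128, 114, 124, 138 and 111 TPM in mex>+ and 184, 202, 190.1, 205 and 208 TPM in mex>PGRP-LE. Its groups were separated by a wide gap, and the difference was 0.68 ± 0.06 (adjusted p = 2.49e-06), or 1.61 times the control mean. Spase22-23, an accessory glycoprotein subunit, rose from 102 ± 3.92 to 156 ± 8.19 TPM, a difference of 0.61 ± 0.05 (adjusted p = 5.8e-07). The catalytic subunit Spase18-21, annotated as twr, rose from 93.9 ± 4.04 to 138 ± 6.44 TPM, a difference of 0.55 ± 0.05 (adjusted p = 1.24e-06). Spase25, the remaining subunit, rose from 64.4 ± 2.58 to 85.2 ± 5.13 TPM, a difference of 0.40 ± 0.05 (adjusted p = 2.41e-05). None of the 4 had overlapping groups. Their transcripts are short, at 493 to 855 bases, and length is taken up below.

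These genes share exonic bases with neighbours on the opposite strand, and the sources used here give no strand setting for the quantification. All 493 exonic bases of Spase12 lie within exons of CG2006, which was 3.86 ± 0.24 and 4.27 ± 0.43 TPM, far below Spase12, with an adjusted p of 0.166. Spase18-21 shares 379 bases with agt, which rose by 0.48 ± 0.11 (adjusted p = 0.00213) from 11.3 ± 1.33 to 16.3 ± 2.75 TPM. Of the 33 genes, 13 have exons overlapped on the opposite strand, among them Sec63, which shares 1787 bases with the antisense RNA asRNA:CR45835. Spase22-23 also shares 78 bases with lncRNA:CR45217 on its own strand. How reads were divided over these bases was not tested.

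In the oligosaccharyltransferase, the catalytic subunits differ widely in level. Stt3A, which in mammals works while the chain is still entering the ER, lies on X at 21049885 to 21053937 on the minus strand and was the lowest of the 33 genes. It measured 8.77, 8.66, 7.37, 9.59 and 7.88 TPM in mex>+ and 11.2, 11.7, 13.9, 12.9 and 12.5 TPM in mex>PGRP-LE. The groups did not overlap, and the difference was 0.51 ± 0.07 (adjusted p = 8.98e-05). Stt3B, which in mammals also acts after translation, rose from 57.5 ± 3.85 to 73.1 ± 5.52 TPM, a difference of 0.34 ± 0.06 (adjusted p = 0.000562). Ost48, a subunit without catalytic activity of its own, rose from 60.0 ± 3.08 to 84.1 ± 3.81 TPM, a difference of 0.48 ± 0.05 (adjusted p = 4.46e-06).

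For COPII, both layers of the coat rose. Sar1, the GTPase that starts assembly and the most abundant of the coat genes, measured 184, 175, 190.4, 193 and 176 TPM in the controls and 212, 238, 245, 226 and 231 TPM with PGRP-LE. Again no library crossed into the other group, and the difference was 0.33 ± 0.05 (adjusted p = 0.000133). Sec13 and Sec31 encode the outer cage. Sec13, which is also a nuclear pore protein, rose from 56.9 ± 2.01 to 81.6 ± 1.74 TPM (0.51 ± 0.04, adjusted p = 4.47e-07), and Sec31 rose from 21.8 ± 0.68 to 27.6 ± 1.49 TPM (0.33 ± 0.05, adjusted p = 7.66e-05). In the inner layer, Sec23, which activates GTP hydrolysis by Sar1, rose by 0.23 ± 0.05 (adjusted p = 0.000887). The cargo-binding paralogs Sec24CD and Sec24AB rose by 0.38 ± 0.06 (adjusted p = 0.000244) and 0.18 ± 0.05 (adjusted p = 0.00373). Sec16, the scaffold of ER exit sites, was 17.1 ± 0.73 and 18.04 ± 0.77 TPM and did not pass (0.07 ± 0.05, adjusted p = 0.207).

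COPI held both the smallest and the largest adjusted p of the 33 genes. epsilonCOP, an outer-layer subunit on 2L at 6489090 to 6490194 on the plus strand, measured 53.6, 54.6, 53.8, 55.8 and 51.7 TPM in mex>+ and 83.3, 90.4, 85.7, 90.3 and 90.4 TPM in mex>PGRP-LE. The gap between the groups was much wider than either group's spread, and the difference was 0.70 ± 0.04 (adjusted p = 6.54e-08), 1.63 times the control mean. alphaCOP, its neighbour in the outer layer, measured 38.0, 37.9, 36.9, 40.4 and 37.6 TPM in mex>+ and 35.7, 38.4, 38.5, 38.9 and 39.9 TPM in mex>PGRP-LE. Those groups lay on each other, with a difference of 0.00 and a 95% interval of -0.09 to 0.10 (adjusted p = 0.947). Rescaled by median of ratios, which centres all genes near 0, alphaCOP fell, at -0.10 (adjusted p = 0.0318). beta'COP, the third outer subunit, rose by 0.19 ± 0.05 (adjusted p = 0.00336). Among the inner-layer adaptor subunits, betaCOP rose by 0.30 ± 0.05, gammaCOP by 0.28 ± 0.05 and zetaCOP by 0.24 ± 0.05. deltaCOP, at 50.8 ± 2.16 and 54.8 ± 2.62 TPM, did not pass (0.11 ± 0.05, adjusted p = 0.0628), but did without mex>PGRP-LE replicate 1 (0.14, adjusted p = 0.0223).

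Rescaling the libraries changed the weaker calls. Median-of-ratios rescaling moved the median of all genes from 0.09 to -0.003 and left 22 members higher and 1 lower, against 31.6% of all genes higher and 31.2% lower. Sec24AB, Sec61gamma, Srp72 and beta'COP lost their calls there. After quantile normalization 25 members were higher and none lower, against 34.2% and 29.4% of all genes, and Sec61gamma lost its call. Scaled to the ERCC spike-ins, synthetic RNAs listed beside the genes, 20 members were higher and none lower, against 29.6% and 18.9% of all genes, and Sec23 and zetaCOP also lost theirs. The authors' deposited table, in which the adjustment of the p-value is not stated, lists a p under 0.05 with a higher value for 22 of the 33 and a lower value for none, against 32.8% and 22.5% of its 10682 genes.

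The proportion of partner genes within a library is nearly free of scaling between libraries, though not of the pseudocount, and was compared for 6 pairs with an exact two-sided permutation test over 5 and 5 libraries, whose smallest p is 0.00794. The log2 ratio SrpRalpha:SrpRbeta went from 0.40 ± 0.07 (SD, n = 5) to 0.11 ± 0.02, a difference of -0.29 ± 0.03 (SE). Sec61alpha:Sec61beta went from -0.16 ± 0.04 to -0.40 ± 0.06, a difference of -0.24 ± 0.03. The ratio alphaCOP:zetaCOP went from -1.32 ± 0.02 to -1.55 ± 0.04, and Sec31:Sec13 from -1.35 ± 0.03 to -1.53 ± 0.06, differences of -0.23 ± 0.02 and -0.19 ± 0.03. In these 4 pairs the groups did not overlap, and the exact permutation test gave p = 0.00794 for each, 0.0119 after adjustment over the 6 pairs. In each of them the gene with the shorter transcript gained on its partner.

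The paralog pairs showed smaller separations. Stt3A:Stt3B went from -2.63 ± 0.10 to -2.46 ± 0.10, a difference of 0.17 ± 0.06 with overlapping groups (exact permutation p = 0.0238, adjusted 0.0286). Sec24AB:Sec24CD went from -0.06 ± 0.06 to -0.26 ± 0.16, a difference of -0.20 ± 0.07 (exact permutation p = 0.0476, adjusted 0.0476). With a pseudocount of 5 in place of 1 neither pair passed, at 0.053 for the log2 ratio Stt3A:Stt3B (adjusted exact permutation p = 0.373) and -0.18 for the log2 ratio Sec24AB:Sec24CD (adjusted 0.0571). In that pair mex>PGRP-LE replicate 1 stood at 0.01 among the controls while the other 4 lay between -0.37 and -0.29. Without it the difference was -0.27 with an adjusted exact p of 0.0190, and without any other single library the pair's adjusted p was over 0.05, reaching 0.0952. Stt3A:Stt3B likewise lost its call, at an adjusted p of 0.0571, without mex>+ replicate 1, 2 or 3 or mex>PGRP-LE replicate 2, 3 or 4.

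**Figure D3:**
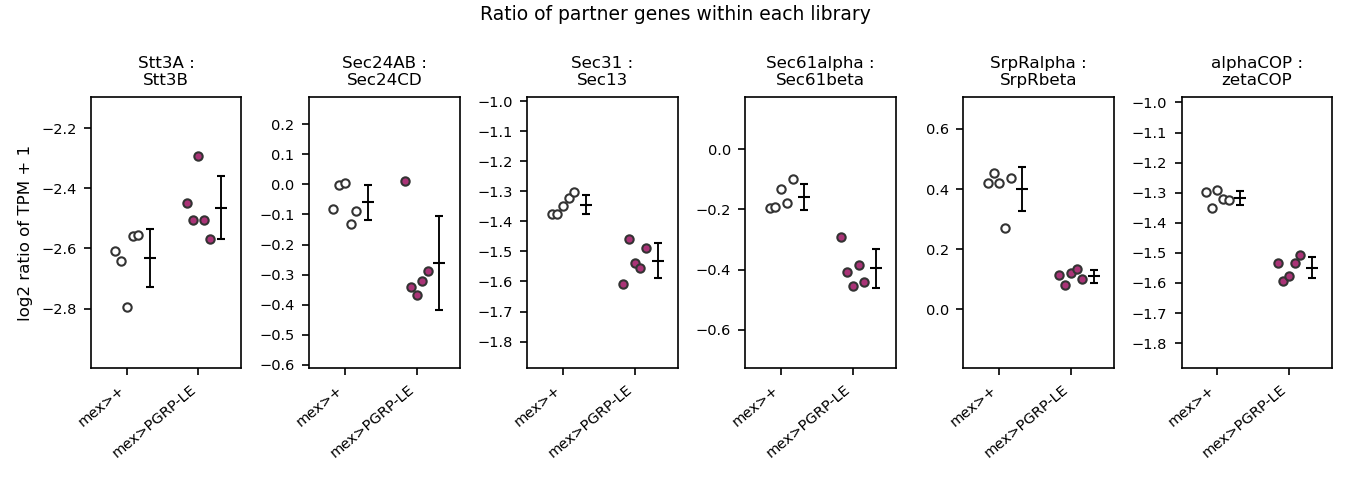
Log2 ratio of TPM + 1 between partner genes within each library, 1 point per library, with mean and SD beside each group (n = 5), each panel on its own axis of equal span. The groups are apart for Sec31:Sec13, Sec61alpha:Sec61beta, SrpRalpha:SrpRbeta and alphaCOP:zetaCOP, and overlap for Stt3A:Stt3B and Sec24AB:Sec24CD.

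Transcript length ran along with these differences. Across the 33 genes, the difference correlated with length at a Spearman rho of -0.57 and a Pearson r of -0.63, given as a description across genes that share the same 10 libraries. Over all 8722 genes tested the values were -0.21 and -0.13. All tested genes were placed in 5 length classes of nearly equal size. All 9 members in the shortest class, up to 1001 bases, rose, in a class where 54.4% of genes rose and the median was 0.26. All 4 signal peptidase genes are among these 9. The 5 members in the longest class included 3 that rose, where 26.2% of genes rose and the median was -0.01. epsilonCOP, Stt3A and Sec24CD lay high for their length, and zetaCOP and Sec61gamma near the median of theirs. The part of length in the differences was not tested.

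**Figure D4:**
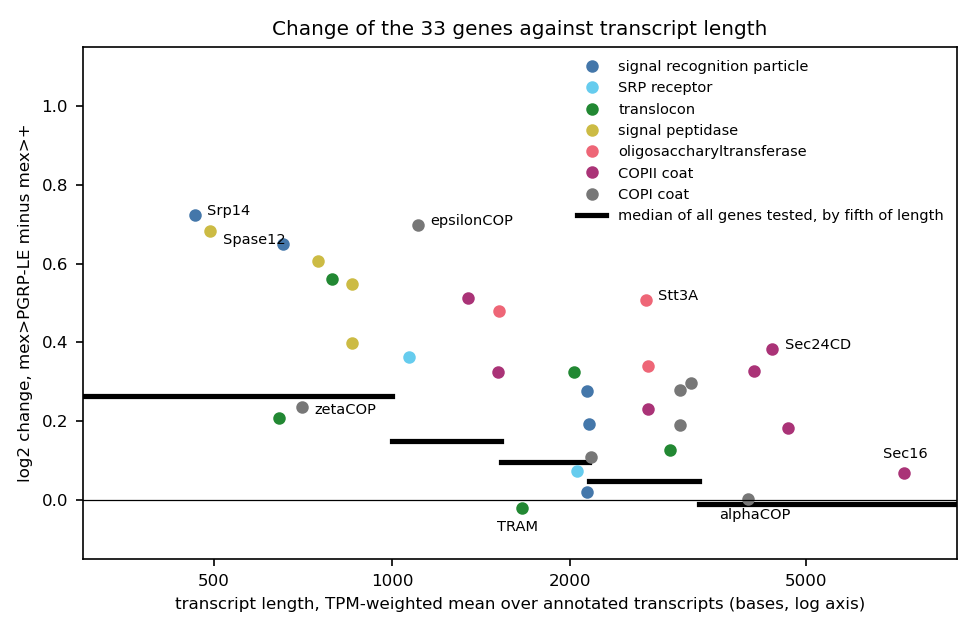
Log2 difference of each of the 33 genes against the length of its transcripts in bases (log axis), coloured by step, with black bars at the median difference of all tested genes in each of 5 length classes. The bars fall from 0.26 in the shortest class to -0.01 in the longest, and most members lie above the bar of their class.

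The 33 genes were among the more abundant of the gut. In the controls their median level was 43.3 TPM, against 13.8 TPM for all genes tested, and their places in the ranking of all tested genes ran from the 35.9 percentile for Stt3A to the 92.2 percentile for Sar1. They are spread over the genome, with 10 on 3R, 9 on X, 6 on 3L, 5 on 2L and 3 on 2R. Among libraries, mex>PGRP-LE replicate 1 was the lowest of its group for 23 of the 33 genes, against 31.2% of all tested genes, and mex>+ replicate 4 was the highest of the controls for 26 of 33, against 34.5%. For most of the 33 genes, each of these libraries was thus the one of its group closest to the other genotype. Without mex>PGRP-LE replicate 1, 28 members rose, against 40.3% of all tested genes.

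Annotated transcripts were tested in the same way. Of 74 transcript rows of the 33 genes, 60 were tested, 36 rose and none fell, against 28% and 18.2% of all 15162 transcripts tested. Sec24CD and gammaCOP each have a pair of transcripts with identical values, all of which rose and are counted separately. For Sar1, the main transcript FBtr0084206 rose from 158 ± 6.23 to 179 ± 6.41 TPM (0.18 ± 0.04, adjusted p = 0.00640) while its share of the gene went from 86.0 ± 1.35% to 77.6 ± 3.40%. The minor transcript FBtr0084208 rose from 13.8 ± 2.18 to 31.2 ± 6.59 TPM (1.11 ± 0.15, adjusted p = 0.000113), with shares of 7.50 ± 0.94% and 13.4 ± 2.16%. For deltaCOP, which did not pass as a gene, FBtr0301926 rose by 0.20 (adjusted p = 0.0178) and FBtr0070371 stood at -0.04 (adjusted p = 0.573). Differences between transcripts of a gene were not tested, and these are abundances estimated from reads that transcripts share.

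Beyond the 33, 10 lists of other genes of the pathway held 103 distinct genes, of which 102 were tested, 60 rose and 6 fell, with a median of 0.19. Each list's count is to be read against the 40.1% of all genes that rose and the 22.8% that fell, and no list was tested against them. Among 8 translocation partners 7 rose, with a median of 0.41. Sec62, also planned for this list, matched no gene by name, so the count leaves out the gene that encodes it. Trp1, annotated as Translocation protein 1, is outside the list and was looked at after its values were seen. Whether Trp1 is the gene planned as Sec62 was not settled here. It fell by -0.23 ± 0.04 (adjusted p = 0.000449). Srp9, the partner of Srp14, rose by 0.73 ± 0.04 (adjusted p = 6.56e-08), from 24.8 ± 0.63 to 41.8 ± 1.85 TPM. SsRbeta and Tapdelta, subunits of the TRAP complex beside the translocon, rose by 0.62 ± 0.05 and 0.43 ± 0.04. Of 5 oligosaccharyltransferase partners 4 rose, with a median of 0.42, among them CG33303 by 0.67 ± 0.05, Dad1 by 0.47 ± 0.08 and OstDelta by 0.42 ± 0.06.

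Glycan synthesis and trimming were more mixed. Of 15 genes that build the lipid-linked oligosaccharide, 8 rose and 2 fell, with a median of 0.16. Dpm1, which makes dolichol-phosphate mannose, and the mannosyltransferases Alg2 and Alg3 rose by 0.56 ± 0.04, 0.49 ± 0.05 and 0.47 ± 0.04. The 2 that fell were Alg1 and Alg13. Alg1 went from 40.7 ± 2.11 to 31.0 ± 0.97 TPM (-0.38 ± 0.05, adjusted p = 1.76e-05), and Alg13 stood at -0.26 ± 0.07 (adjusted p = 0.00647). Of 14 tested genes of glycan trimming and quality control, 5 rose and 2 fell, near the shares over all genes, with a median of 0.09, equal to that of all genes. Calr, the lectin chaperone calreticulin, rose by 0.50 ± 0.05 and GCS2beta, a subunit of glucosidase II, by 0.44 ± 0.06, whereas the mannosidase gene alpha-Man-Ib fell from 5.98 ± 0.43 to 3.05 ± 0.17 TPM (-0.78 ± 0.06, adjusted p = 4.42e-07).

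Of 10 ER folding genes 5 rose, close to the share over all genes. prtp, ERp60 and CaBP1, all of the protein disulphide isomerase family, rose by 0.95 ± 0.05, 0.82 ± 0.05 and 0.90 ± 0.08. Hsc70-3, the BiP chaperone, was 248 ± 36.9 and 249 ± 24.2 TPM (0.01, adjusted p = 0.93), and Pdi was 342 ± 9.31 and 344 ± 18.8 TPM (0.01, adjusted p = 0.884), so 2 of the most abundant folding genes had no call. Among 6 regulators of secretory and ER stress genes none rose and 1 fell. Ire1, a sensor of unfolded proteins, fell from 22.7 ± 1.53 to 20.0 ± 1.39 TPM (-0.18 ± 0.06, adjusted p = 0.0257). CrebA stood at 0.05 (adjusted p = 0.415), Xbp1 at 0.03 (adjusted p = 0.679) and Atf6 at -0.10 (adjusted p = 0.135). PEK stood at 0.11 (adjusted p = 0.157). crc, also named ATF4, stood at 0.10, just outside the threshold (adjusted p = 0.0543), with every PGRP-LE library above every control.

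On the vesicle side, 14 of 18 tether, SNARE and Rab genes rose with a median of 0.31, and 10 of 13 genes of the Arf cycle and the TRAPP tethering complex rose with a median of 0.40. Bet1, a SNARE of ER to Golgi transport, rose by 0.91 ± 0.06, from 39.4 ± 1.67 to 75.2 ± 5.92 TPM. The GTPases Rab1, Rab6 and Arf1, the last of which recruits COPI, rose by 0.54 ± 0.05, 0.53 ± 0.06 and 0.40 ± 0.04, and the TRAPP genes Bet5 and Trs31 by 0.61 ± 0.07 and 0.60 ± 0.05. Of 6 names listed under coat paralogs and regulators, 2 matched a gene and both rose. CG9175, of the older name Sec12, rose by 0.26 ± 0.08 and Tango9 by 0.19 ± 0.05. Whether Tango9 acts on a coat is not shown here. Among 13 cargo and export receptors, 6 rose and 1 fell, also close to that share. The p24 family genes bai and CHOp24 rose by 0.50 ± 0.06 and 0.41 ± 0.04, and p24-2, of the same family, fell from 196 ± 27.3 to 48.9 ± 8.50 TPM (-1.99 ± 0.13, adjusted p = 2.37e-07).

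**Figure D5:**
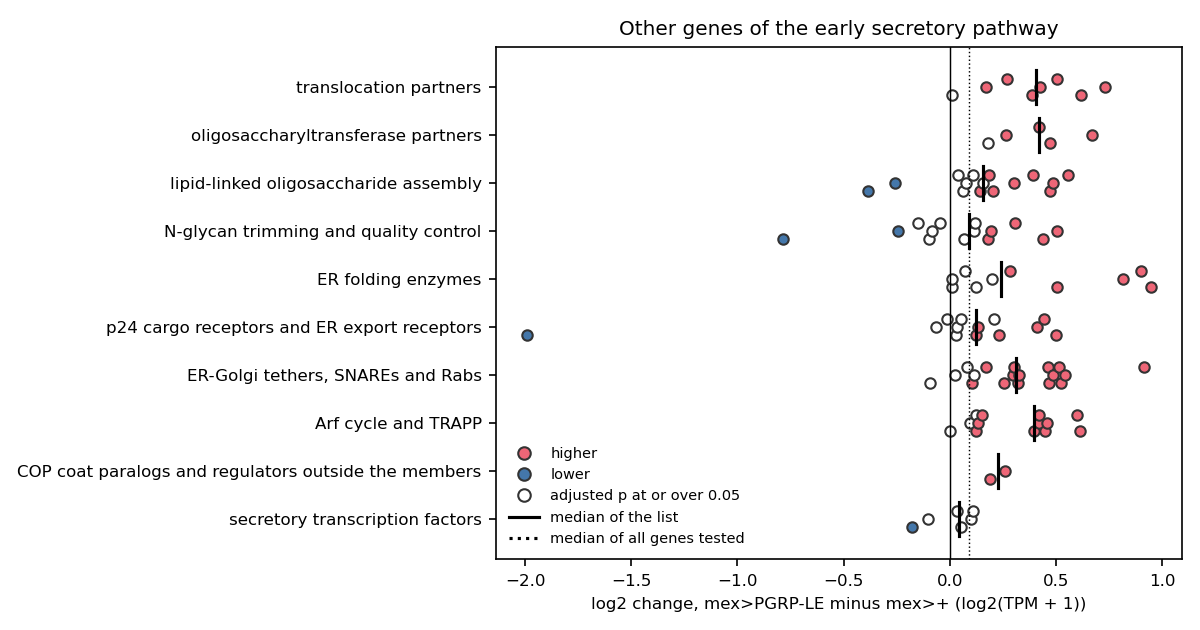
Log2 difference, mex>PGRP-LE minus mex>+, of the tested genes of 10 lists outside the 33, with 1 point per gene, filled red where it rose and blue where it fell, a bar at each list's median and a dotted line at the median of all genes, 0.09. Medians run from 0.04 for the transcription factors and stress sensors to 0.42 for oligosaccharyltransferase partners, and p24-2 lies far to the left at -1.99.

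Cell type markers moved alongside, and their counts too are set beside 40.1% of all genes higher and 22.8% lower. All 8 tested progenitor markers rose, and their summed level ran from 23.6 to 31.7 TPM in mex>+ and from 86.05 to 107.4 TPM in mex>PGRP-LE. Of 12 enterocyte markers 8 rose and 4 fell, with sums of 35660 to 38908 TPM and 28876 to 34578 TPM. The most abundant of them, alphaTry and Jon65Aiv, make up most of these sums. alphaTry fell from 20493 ± 1354 to 16099 ± 701 TPM and Jon65Aiv from 10816 ± 707 to 6908 ± 895 TPM. betaTry, deltaTry, Ssk, Tsp2A and mesh were among those that rose. Of 11 enteroendocrine markers 2 rose and 2 fell, of 11 visceral muscle markers none rose and 5 fell, and of 8 markers of the copper and iron regions 1 rose and 5 fell. Of Malpighian tubule markers 4 were tested and 2 fell, with sums of 141 to 266 TPM and 33.1 to 96.3 TPM. Of haemocyte markers 3 were tested, of which 1 rose and 2 fell, of salivary gland and proventriculus markers 3, of which 2 fell, and of trachea markers 4, of which 2 fell. Of neuron markers 4 were tested, of which 2 rose and 1 fell, and of fat body markers 2, neither of which passed. No testis marker passed the filter on low values, and the testis markers Mst87F and Mst84Da were listed at 0 in every library. Of the 12 enterocyte markers 11 stood at 39.6 TPM or more in every library, while Cad99C lay between 1.23 and 2.27 TPM. The part of these shifts in the differences of the 33 genes was not tested.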

How the data were processed

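Per the labels' protocols, libraries were made from poly(A) RNA with a stranded Illumina TruSeq kit. Per the submitters' processing notes, the tools were kallisto, edgeR, Trim Galore and FastQC and the build BDGP6, and the sources used here give no strand setting. The authors deposited transcript TPM, a unit that keeps no depth, for 31181 rows including 92 ERCC spike-ins. They also deposited a table of their own comparison with log2 fold changes and p-values per gene, titled for RUVSeq.

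Of 31089 rows that are not spike-ins, 31048 were matched to genes of Ensembl release 115 (BDGP6.54) and TPM were summed per gene. Genes that reached 1 TPM in 5 or more of the 10 libraries were tested on log2(TPM + 1) with limma 3.58.1 in R 4.3.3 (moderated, trend and robust, two-sided, Benjamini-Hochberg, threshold 0.05), without a replicate term. Transcripts were tested in the same way. Ratios used an exact permutation test (SciPy 1.17.1, Python 3.11.15). The procedure was tested on simulated data.

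The alternatives were other pseudocounts (0.1 and 5), filters, scalings, variance models, weights, thresholds, a replicate block and leaving out each library. The named genes are all 33 members, Srp54k, PGRP-LE, Dredd and, from each pathway list, the 3 genes with the smallest p past the threshold. Hsc70-3, Pdi, CrebA, Xbp1, Atf6, crc, PEK, Alg1, Alg13, Trp1, single enterocyte markers and overlapping neighbours of members were named after their values were seen. The members and lists were chosen with earlier results of these data known.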

Additional observations from a re-analysis of the deposited data

Results flagged for a closer look

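Each gene's 5 libraries per group were screened for a highest or lowest library far from the others, by the gap to the nearest library over the group's range, over 78 groups including the 6 ratios. 5 stood apart, and chance alone gives about 1 in 20 groups. SrpRalpha in mex>PGRP-LE replicate 1 was 38.4 TPM, below the other 4 libraries at 40.7 to 41.0 TPM. zetaCOP in the same library was 105 TPM, below the others at 114.5 to 118 TPM. The log2 ratio Sec24AB:Sec24CD in that library was 0.012, above the others at -0.37 to -0.29. Sec16 in mex>+ replicate 3 was 18.4 TPM, above the others at 16.7 to 17.1 TPM. The log2 ratio SrpRalpha:SrpRbeta in mex>+ replicate 4 was 0.27, below the others at 0.42 to 0.45. So 3 of the 5 lie in mex>PGRP-LE replicate 1.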

How the results depend on the processing

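Between 25 and 28 members were higher when any 1 library was left out, none was lower, and 3257 to 3556 of all genes were higher and 1834 to 2044 lower. Of 759 values of single members under an alternative, 713 kept their direction and their side of the threshold, 38 lost the call, 7 gained it and 1 turned: alphaCOP, at -0.10 after median-of-ratios rescaling. That rescaling gave 1 member lower and medians of 0.22 for all members, 0.17 for SRP, 0.12 for its receptor, 0.47 for signal peptidase, 0.38 for oligosaccharyltransferase, 0.10 for the translocon, 0.22 for COPII and 0.13 for COPI. It subtracts a shift common to all genes: 50.3% of calls were then higher, against 63.7% before, and 53.8% with quantile normalization, which gave 0.22 for SRP, 0.14 for its receptor, 0.50 for signal peptidase and 0.41 for oligosaccharyltransferase. A pseudocount of 5 gave 0.37 for oligosaccharyltransferase and ended the calls of the log2 ratio Stt3A:Stt3B (0.053, adjusted exact permutation p = 0.373) and the log2 ratio Sec24AB:Sec24CD (-0.18, adjusted exact permutation p = 0.0571). A required log2 difference of 0.5 left 9 members higher, and 1251 higher and 827 lower of all genes. The SRP medians given here count Srp54, which encodes no SRP subunit.

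With 1 library left out, the ratio differences ran from 0.13 to 0.19 for Stt3A:Stt3B, -0.27 to -0.17 for Sec24AB:Sec24CD, -0.20 to -0.17 for Sec31:Sec13, -0.26 to -0.22 for Sec61alpha:Sec61beta, -0.32 to -0.28 for SrpRalpha:SrpRbeta and -0.24 to -0.22 for alphaCOP:zetaCOP. Only the first 2 pairs lost calls.

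With the replicate block, 25 members were higher, against 36.4% of all genes. The block leaves the ratio differences at 0.17 for Stt3A:Stt3B and -0.20 for Sec24AB:Sec24CD (adjusted exact sign-flip p = 0.125), and at -0.19 for the log2 ratio Sec31:Sec13, -0.24 for Sec61alpha:Sec61beta, -0.29 for SrpRalpha:SrpRbeta and -0.23 for alphaCOP:zetaCOP (adjusted 0.09375), where the smallest p the test allows is 0.0625 before adjustment. Replicate numbers did not pair the libraries: deviations of same-numbered libraries correlated at -0.173, 0.57, -0.233, 0.065 and -0.056, and 1 of 5 controls correlated best with its own number.

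With Srp54k in place of Srp54, 26 members were higher, against 40.1% of all genes, and with TPM computed again without spike-ins, unmatched rows and PGRP-LE, 27 were, against 41.0%. These 2 alternatives were chosen after seeing the data. Promoter motifs were not run, as promoter sequence was not used here. TPM give no depth, so no value carries counting error.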

Other observations

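Trp1, annotated as Translocation protein 1 and looked at after its values were seen, moved opposite to Sec61alpha and Sec61beta, while TRAM and Sec63 had no call. Trp1 is in none of the lists counted above, and whether it is the gene planned as Sec62 was not settled here. It fell from 92.1 ± 1.41 TPM (SD, n = 5) in mex>+ to 78.5 ± 3.59 TPM in mex>PGRP-LE, and the groups did not overlap. The limma difference was -0.23 ± 0.04 on the log2(TPM + 1) scale (adjusted p = 0.000449), in the direction that 22.8% of all tested genes took. CG8860, also looked at after its values were seen and also in none of the lists, rose from 154 ± 8.72 to 251 ± 13.8 TPM (0.71 ± 0.05, limma adjusted p = 4.37e-07), as 40.1% of all tested genes did.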
